A study of Mus musculus with 6 samples.

Results

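The 5 genes described here serve glucose sensing and the mature state of the pancreatic beta cell: Slc2a2, G6pc2, Pcx, Trpm5 and Ucn3. They were chosen by name, and their probes were found through the RefSeq accession that the array annotation gives each probe. Each gene had 1 probe, so 5 of 39426 probes on the array belong to them, and all 5 passed the filter on dim probes and stand among the 19021 genes tested. Every one of the 5 probes was well above background on all 6 arrays. The arrays read messenger RNA of pancreatic islets from male mice of ICR background aged 16 weeks, with 2 arrays in each of 3 groups. TrspFF islets carried floxed alleles of Trsp and no Cre, per the labels. Trsp-RIPKO islets carried the same floxed alleles and RIP-Cre, in which a rat insulin promoter drives Cre. Trsp-Ins1KO islets carried the floxed alleles and Ins1-Cre. Trsp encodes the selenocysteine transfer RNA, which every selenoprotein needs. Floxed Trsp was shared by all 3 groups. Both drivers are directed at beta cells, so the other cells of an islet were not meant to lose Trsp, and mice with Cre but without floxed Trsp were not analysed here. No label states whether both arrays of a group stem from different mice or pools, and p-values therefore cover only the spread between the samples, which may be technical.

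A beta cell releases insulin according to how much glucose it burns. In the mouse, glucose enters through GLUT2, the transporter encoded by Slc2a2 and is phosphorylated to glucose-6-phosphate. G6pc2 encodes an islet glucose-6-phosphatase that reverses this step. In the mitochondrion, part of the pyruvate from glycolysis is converted by pyruvate carboxylase, the product of Pcx, which refills the citric acid cycle. ATP then closes K-ATP channels, the membrane depolarises, and calcium enters. TRPM5, a cation channel opened by intracellular calcium, can add to that depolarisation. Ucn3 encodes urocortin 3, a peptide released with insulin. It acts on delta cells through the receptor CRHR2, and it appears late in beta-cell maturation in the mouse, for which it is used as a marker of mature beta cells.

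Values of single arrays are processed intensities on the log2 scale after subtraction of each array's 75th percentile, so that 0 is the level of the probe at that percentile. Its intensity lay between 203.0 and 247.2 for TrspFF and Trsp-RIPKO and at 121.9 and 110.7 for Trsp-Ins1KO. From 51.4% to 61.0% of probes per array were well above background, and 0 spots were saturated. Both Trsp-RIPKO arrays filled slide 2 and were marked for evaluation by the scanner software, while TrspFF and Trsp-Ins1KO shared slide 1 and were in range. Slide and group therefore cannot be told apart for Trsp-RIPKO, and the comparison of Trsp-Ins1KO with TrspFF lies within slide 1. The annotation held 0 probes for Trsp, so the deleted gene gives no check of the genotypes. The authors' table of processed values carries other names: what it calls TrspFF tracks the Trsp-Ins1KO scanner files and the reverse (r = 1.0 over 19486 probes), whereas Trsp-RIPKO tracks its own. The groups used here are those of the scanner files, and values under the authors' column names stand beside the members. For every other gene named, exchanging those names turns the sign of Trsp-Ins1KO against TrspFF. It also changes Trsp-RIPKO against TrspFF, which becomes the difference of Trsp-Ins1KO against Trsp-RIPKO with its sign turned. On the beta-cell maturity list below, 2 called higher and 8 called lower in Trsp-RIPKO became 5 and 15. The Trsp-RIPKO values of genes and lists therefore also depend on the naming. Median scaling in place of the 75th percentile moved the median of all genes by -0.24 in Trsp-RIPKO against TrspFF and by 0.17 in Trsp-Ins1KO against Trsp-RIPKO. In whole islets, fewer cells of a type and less RNA per cell cannot be told apart.

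The arrays measured the transcripts that start downstream of the following windows, each the 250 bases before an annotated start in the RefSeq table for GRCm38.p6. They are shown as the promoter sequence next to the starts of the 5 genes whose mRNA was compared. The windows are chr3:28697653-28697902 on the + strand for Slc2a2, chr2:69210823-69211072 on the + strand for the first of 2 starts of G6pc2, chr19:4510222-4510471 and chr19:4594069-4594318 on the + strand for the 2 starts of Pcx, chr7:143094643-143094892 on the - strand for Trpm5, and chr13:3945350-3945599 on the - strand for Ucn3. Capitals mark E-boxes (CANNTG), which basic helix-loop-helix factors such as NEUROD1 bind, and TAAT on either strand, the core bound by homeodomain factors such as PDX1 and NKX6-1.
Slc2a2: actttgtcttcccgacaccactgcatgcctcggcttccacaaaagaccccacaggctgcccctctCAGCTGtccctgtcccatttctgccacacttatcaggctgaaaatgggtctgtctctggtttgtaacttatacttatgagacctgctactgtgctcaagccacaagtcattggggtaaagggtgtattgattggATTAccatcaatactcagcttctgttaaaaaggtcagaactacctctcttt
G6pc2, first start: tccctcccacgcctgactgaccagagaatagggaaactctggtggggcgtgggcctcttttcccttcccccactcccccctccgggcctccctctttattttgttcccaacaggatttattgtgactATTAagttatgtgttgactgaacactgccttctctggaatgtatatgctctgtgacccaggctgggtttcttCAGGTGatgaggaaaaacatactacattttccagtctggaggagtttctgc
Pcx, first start: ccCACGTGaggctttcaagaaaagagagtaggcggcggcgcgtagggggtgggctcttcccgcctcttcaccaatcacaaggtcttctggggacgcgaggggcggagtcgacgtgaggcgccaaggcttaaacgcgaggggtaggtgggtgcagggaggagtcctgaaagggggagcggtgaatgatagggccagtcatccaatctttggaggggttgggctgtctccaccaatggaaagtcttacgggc
Pcx, second start: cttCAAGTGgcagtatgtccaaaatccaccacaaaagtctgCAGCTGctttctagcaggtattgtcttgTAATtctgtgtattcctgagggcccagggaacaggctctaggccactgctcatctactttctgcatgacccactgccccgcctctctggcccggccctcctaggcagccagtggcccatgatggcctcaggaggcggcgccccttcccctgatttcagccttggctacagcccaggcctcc
Trpm5: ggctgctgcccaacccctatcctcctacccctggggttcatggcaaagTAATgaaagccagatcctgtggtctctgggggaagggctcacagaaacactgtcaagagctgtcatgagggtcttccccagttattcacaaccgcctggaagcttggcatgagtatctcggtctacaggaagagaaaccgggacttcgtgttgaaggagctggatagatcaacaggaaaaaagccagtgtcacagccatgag
Ucn3: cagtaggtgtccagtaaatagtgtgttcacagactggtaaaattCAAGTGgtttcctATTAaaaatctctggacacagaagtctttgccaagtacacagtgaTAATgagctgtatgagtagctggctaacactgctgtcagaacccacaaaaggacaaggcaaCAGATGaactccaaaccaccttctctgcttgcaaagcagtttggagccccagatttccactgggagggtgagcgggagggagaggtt
An E-box occurred 1 time each in the windows of Slc2a2, the first G6pc2 start and the first Pcx start. It occurred 2 times each in those of the second Pcx start and Ucn3 and 0 times in that of Trpm5. TAAT occurred 1 time each for Slc2a2, the first G6pc2 start, Trpm5 and the second Pcx start. It occurred 2 times for Ucn3 and 0 times for the first Pcx start. Of all 32851 windows in the table, 66.2% held an E-box and 54.9% held TAAT, so their presence is common. Other letters were searched on both strands and were in 0 of these 6 windows. They were the MAF partial site TGCTGA, present in 16.1% of all windows, and the forkhead letters TGTTTNC, present in 17.8%. They were also the TATA box, TATAAA, present in 12.4%, and the HNF1 partial site GTTAAT, present in 6.4%. GTTAAT contains TAAT. The 250 bases before the second G6pc2 start, not shown here, held an E-box 4 times and TAAT 3 times. They also held the MAF partial site 2 times and the forkhead letters 1 time.

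The 5 genes did not move as one group. Slc2a2 and Trpm5 were lower in each knockout than in TrspFF, Ucn3 was lower in Trsp-RIPKO with no called difference in Trsp-Ins1KO, Pcx was lower in Trsp-RIPKO and higher in Trsp-Ins1KO, and G6pc2 passed no test. In Trsp-RIPKO against TrspFF, 4 of the 5 fell and 0 rose, where 36.4% of all tested genes were called and 17.5% were called lower. In Trsp-Ins1KO against TrspFF, 2 fell and 1 rose, where 45.9% of all tested genes were called, 23.0% in each direction. Between the knockouts, 2 were higher and 1 was lower in Trsp-Ins1KO, against 38.7% of genes called, 19.3% higher and 19.4% lower. Both knockouts were compared with the same 2 TrspFF arrays, so these comparisons are not independent of each other.

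**Figure D1:**
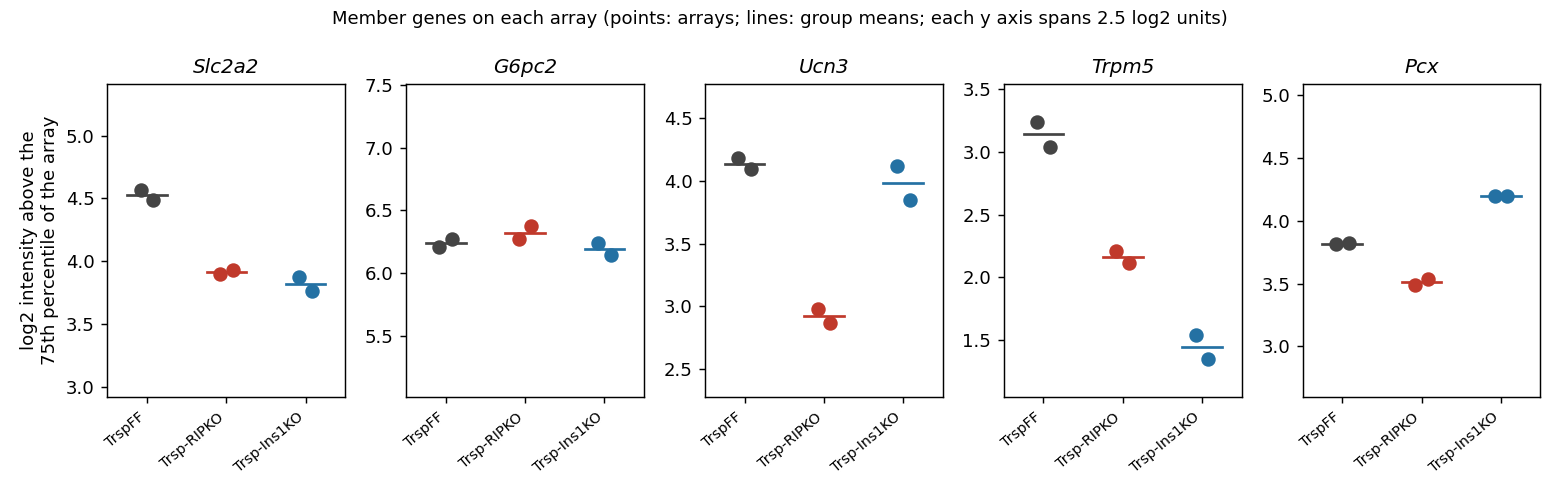
Log2 processed intensity above the array's 75th percentile (y axis, with the same span but another start in each panel, not starting at 0) of the 5 genes on each array; points are arrays and lines are group means of 2 arrays. Ucn3 and Pcx had their lowest values on the Trsp-RIPKO arrays, Trpm5 fell from TrspFF over Trsp-RIPKO to Trsp-Ins1KO, and G6pc2 lay between 6.14 and 6.38 on all arrays.

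Slc2a2, the glucose transporter, stood at 4.57 and 4.49 (TrspFF), 3.90 and 3.93 (Trsp-RIPKO), and 3.87 and 3.76 (Trsp-Ins1KO). Both TrspFF arrays lay above all 4 knockout arrays, and the groups did not overlap. Slc2a2 fell by 0.62 in Trsp-RIPKO (1.53-fold lower, SE 0.076, limma with n = 2 arrays per group, adjusted p = 0.00812) and by 0.71 in Trsp-Ins1KO (1.64-fold lower, SE 0.076, limma adjusted p = 0.00318). Trsp-RIPKO and Trsp-Ins1KO differed by -0.09, with a 95% interval of -0.29 to 0.10 (limma adjusted p = 0.363). In the order TrspFF, Trsp-RIPKO, Trsp-Ins1KO the second step thus missed the threshold, though the arrays of both knockouts did not overlap, and normexp background correction called it (-0.44, limma adjusted p = 0.00017). The call in Trsp-RIPKO was lost without TrspFF 1 (-0.58, limma adjusted p = 0.063). Under the authors' column names, Trsp-Ins1KO was 0.71 higher than TrspFF, and Trsp-RIPKO differed from TrspFF by 0.10 (limma adjusted p = 0.36). Slc2a2 is also a gene of hepatocytes and enterocytes, and markers of both were higher in a knockout. The summed level of 6 tested hepatocyte markers was 0.835 and 0.873 (TrspFF), 0.701 and 0.705 (Trsp-RIPKO) and 5.06 and 4.86 (Trsp-Ins1KO), as linear intensity relative to the 75th percentile. Of those 6 markers, 1, 2 and 5 were well above background on both arrays of TrspFF, Trsp-RIPKO and Trsp-Ins1KO, and Alb was well above background in Trsp-Ins1KO alone. The sum of 4 tested enterocyte markers was 6.40 and 6.11 (TrspFF), 7.96 and 8.11 (Trsp-RIPKO) and 8.38 and 7.95 (Trsp-Ins1KO), with 1, 4 and 2 of them well above background on both arrays. In each knockout 3 of the 4 were called higher and 0 lower, beside 18.9% (Trsp-RIPKO) and 23.0% (Trsp-Ins1KO) of all genes called higher. Their median differences were 3.92 in Trsp-RIPKO and 1.24 in Trsp-Ins1KO, resting partly on values not well above background. The part of these cells in the Slc2a2 values was not tested.

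G6pc2, the phosphatase that turns glucose-6-phosphate back into glucose, passed no test. Its values were 6.21 and 6.27 (TrspFF), 6.27 and 6.38 (Trsp-RIPKO) and 6.24 and 6.14 (Trsp-Ins1KO), and each knockout overlapped TrspFF. The difference from TrspFF was 0.08 in Trsp-RIPKO (95% interval -0.12 to 0.28, limma adjusted p = 0.434) and -0.05 in Trsp-Ins1KO (-0.25 to 0.15, limma adjusted p = 0.642), and -0.13 between Trsp-Ins1KO and Trsp-RIPKO (-0.33 to 0.07, limma adjusted p = 0.236). The 3 intervals span -0.33 to 0.28, so a fall as large as that of Slc2a2 lies outside them. With normexp background correction in place of the processed intensity, G6pc2 was called lower in Trsp-Ins1KO than in TrspFF (-0.29, limma adjusted p = 0.0029) and than in Trsp-RIPKO (-0.29, limma adjusted p = 0.0044).

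Other genes of glucose entry and glycolysis went both ways. Of 36 listed genes 32 were tested; 5 rose and 9 fell in Trsp-RIPKO (median -0.04, 4 and 14 with median scaling, 8 and 8 with normexp), and 13 rose and 5 fell in Trsp-Ins1KO (median 0.16, 13 and 8 with normexp), beside medians of 0 and -0.01 over all genes. Over all tested genes, 18.9% were called higher and 17.5% lower in Trsp-RIPKO, and 23.0% in each direction in Trsp-Ins1KO. Most of the falls in Trsp-RIPKO were lost with any 1 array of TrspFF or Trsp-RIPKO left out, as were most calls over all genes. Without the filter on dim probes 5 rose and 0 fell there. In Trsp-Ins1KO 7 rose and 1 fell without TrspFF 1, 9 and 1 without TrspFF 2, 9 and 3 without Trsp-Ins1KO 1 and 13 and 2 without Trsp-Ins1KO 2. G6pc, the glucose-6-phosphatase of liver, kidney and gut, rose at least 3.44-fold in Trsp-RIPKO (limma adjusted p = 0.00343) and was not well above background on any TrspFF or Trsp-Ins1KO array, so with the processed intensity G6pc and G6pc2 did not share a pattern. With normexp, G6pc differed between the knockouts by only 0.02 (limma adjusted p = 0.84). Slc2a4, the insulin-responsive transporter GLUT4, rose by 0.67 and 0.98, Pfkfb3, a regulator of glycolysis, by 0.85 and 0.97, and Slc16a1, a monocarboxylate transporter normally kept low in beta cells, by 0.81 and 0.69 (Trsp-RIPKO first). Pfkp, a phosphofructokinase, rose by 0.84 in Trsp-Ins1KO. In Trsp-RIPKO, leaving out TrspFF 1 or TrspFF 2 ended the calls of Slc2a4, Pfkfb3 and Slc16a1, and leaving out Trsp-RIPKO 2 those of Slc2a4 and Pfkfb3 (highest limma adjusted p of 0.12, 0.067 and 0.051). Pfkp was lost without TrspFF 1 (limma adjusted p = 0.053).

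Pcx, encoding pyruvate carboxylase, was the member that moved in opposite directions. It stood at 3.81 and 3.82 (TrspFF), 3.49 and 3.53 (Trsp-RIPKO) and 4.20 and 4.20 (Trsp-Ins1KO). The 3 groups did not overlap, with Trsp-RIPKO lowest and Trsp-Ins1KO highest. Pcx fell by 0.31 in Trsp-RIPKO (1.24-fold lower, SE 0.064, limma with n = 2 arrays per group, adjusted p = 0.0217) and rose by 0.38 in Trsp-Ins1KO (1.30-fold, SE 0.064, limma adjusted p = 0.00871). Trsp-Ins1KO exceeded Trsp-RIPKO by 0.69 (1.61-fold, limma adjusted p = 0.00256), and all 6 fits without 1 array called this difference. The call against TrspFF was lost in Trsp-RIPKO whichever array of TrspFF or Trsp-RIPKO was left out (highest limma adjusted p = 0.12) and in Trsp-Ins1KO without TrspFF 1 or TrspFF 2 (highest limma adjusted p = 0.066). Normexp gave 0.10 for Trsp-Ins1KO against TrspFF (limma adjusted p = 0.23), and median scaling gave -0.55 for Trsp-RIPKO against TrspFF (limma adjusted p = 0.0071). Under the authors' column names Pcx was also lowest in Trsp-RIPKO (-0.69 against TrspFF, limma adjusted p = 0.0026), and Trsp-Ins1KO was then below TrspFF by -0.38. Pcx is expressed in liver and fat too. Fabp4 was the 1 adipocyte marker of 5 that passed the filter, at 2.75 and 2.79 (TrspFF), 1.92 and 1.70 (Trsp-RIPKO) and 1.60 and 1.54 (Trsp-Ins1KO). Fabp4 was thus lower in both knockouts, while hepatocyte markers were highest in Trsp-Ins1KO, as given above. Their part in the Pcx values was not tested.

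Around Pcx, the list of pyruvate entry, anaplerosis and redox shuttles held 39 tested genes of 41. In Trsp-RIPKO 5 rose and 12 fell (median -0.12, 2 and 21 with median scaling), and in Trsp-Ins1KO 13 rose and 8 fell (median -0.02, 10 and 10 with median scaling). Of all tested genes, 18.9% were called higher and 17.5% lower in Trsp-RIPKO, and 23.0% in each direction in Trsp-Ins1KO. With median scaling, 2013 of all 19021 genes were called higher and 7264 lower in Trsp-RIPKO. Most of the listed calls in Trsp-RIPKO were lost with any 1 array of TrspFF or Trsp-RIPKO left out, as were most over all genes. Without the filter on dim probes 1 rose and 1 fell there. In Trsp-Ins1KO the counts were 7 and 4 without TrspFF 1 and 7 and 5 without TrspFF 2. Kinases that switch off pyruvate dehydrogenase, the enzyme that competes with pyruvate carboxylase for pyruvate, differed among themselves. Pdk3 fell by 1.20 in Trsp-RIPKO and by 1.16 in Trsp-Ins1KO, Pdk4 fell by 1.23 in Trsp-Ins1KO and stood at -0.12 in Trsp-RIPKO, and Pdk2 rose by 0.90 in Trsp-Ins1KO and stood at 0.12 in Trsp-RIPKO. Me3, a mitochondrial malic enzyme, rose by 0.74 and 0.99, and the call in Trsp-RIPKO was lost without Trsp-RIPKO 2 (limma adjusted p = 0.055). Glud1, encoding glutamate dehydrogenase, rose by 0.89 in Trsp-Ins1KO, with 0.24 on a second probe. Ogdh, a subunit of the oxoglutarate dehydrogenase complex, rose by 1.13 in Trsp-Ins1KO, while its other 2 probes gave 0.90 and -0.62.

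Trpm5, the calcium-activated cation channel, showed the widest span of the 5 genes. It stood at 3.24 and 3.04 (TrspFF), 2.21 and 2.11 (Trsp-RIPKO) and 1.54 and 1.35 (Trsp-Ins1KO). No 2 groups overlapped, and each step in that order exceeded the spread within groups. Trpm5 fell by 0.98 in Trsp-RIPKO (1.97-fold lower, SE 0.111, limma with n = 2 arrays per group, adjusted p = 0.00723) and by 1.70 in Trsp-Ins1KO (3.24-fold lower, SE 0.111, limma adjusted p = 0.00135). Trsp-Ins1KO lay 0.72 below Trsp-RIPKO (1.65-fold lower, limma adjusted p = 0.00824). All 3 calls held in each of the 6 fits that left out 1 array. Under the authors' column names the order was reversed at both ends: Trsp-Ins1KO exceeded TrspFF by 1.70 (limma adjusted p = 0.0013) and Trsp-RIPKO exceeded TrspFF by 0.72 (limma adjusted p = 0.0082). Trpm5 is also a gene of tuft cells, the chemosensory cells of gut and pancreatic duct. Only 3 of 8 listed tuft-cell markers passed the filter, and Pou2f3, Gnat3 and Il25, which define these cells, were not among them. The 3 summed to 2.21 and 1.96 (TrspFF), 1.93 and 1.58 (Trsp-RIPKO) and 1.22 and 1.21 (Trsp-Ins1KO). Of the 3, 1 was called lower in each knockout and 0 were called higher, and their part in the Trpm5 values was not tested.

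Other channel genes took other directions. Of 29 listed genes of K-ATP, potassium, calcium and TRP channels and calcium release 24 were tested. In Trsp-RIPKO 3 rose and 2 fell (median 0.04; 1 and 9 with median scaling, 2 and 3 with quantile normalization, 4 and 5 with normexp), and in Trsp-Ins1KO 11 rose and 3 fell (median 0.43). The shares of all tested genes were 18.9% higher and 17.5% lower in Trsp-RIPKO, and 23.0% in each direction in Trsp-Ins1KO. Most of the listed calls in Trsp-RIPKO were lost with any 1 array of TrspFF or Trsp-RIPKO left out, as were most over all genes. Without the filter on dim probes 0 of the listed genes were called there. In Trsp-Ins1KO 6 rose and 1 fell without TrspFF 1, and 7 and 1 without TrspFF 2. Abcc8 and Kcnj11, the 2 subunits of the K-ATP channel, stood at 0.03 and 0.01 in Trsp-RIPKO (limma adjusted p of 0.77 and 0.922) and rose by 0.51 and 0.49 in Trsp-Ins1KO. Both rises were lost without TrspFF 1 or TrspFF 2 (highest limma adjusted p of 0.057 and 0.065), and a second Kcnj11 probe gave 0.03. Trpm4, the closest relative of Trpm5 and also opened by calcium, fell by 0.71 in Trsp-RIPKO, a call lost without TrspFF 1, TrspFF 2 or Trsp-RIPKO 2 (highest limma adjusted p = 0.13), and stood at -0.34 in Trsp-Ins1KO (limma adjusted p = 0.143). The potassium channel genes Kcnk16 and Kcnh6 rose by 1.17 and 1.12 in Trsp-Ins1KO, with 0.12 on a second Kcnh6 probe that was well above background on 2 of 6 arrays. The phospholipase gene Plcb3 rose by 0.82 there, and the inositol trisphosphate receptor genes Itpr2 and Itpr3 by 0.90 and 0.69. None of these 5 genes passed the test in Trsp-RIPKO (values from -0.12 for Itpr3 to 0.23 for Kcnk16).

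**Figure D2:**
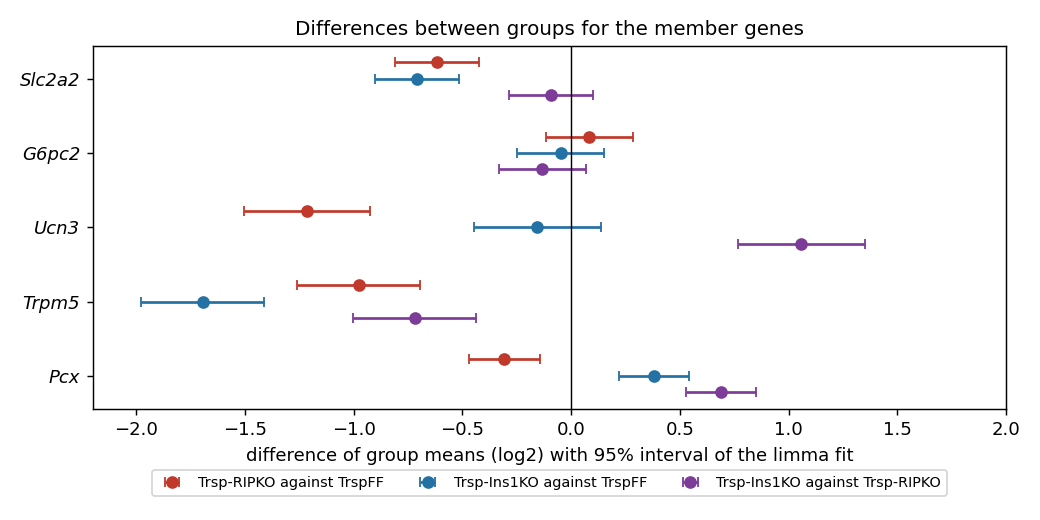
Differences of group means on the log2 scale (x axis) for the 5 genes (y axis) in the 3 comparisons of 2 arrays against 2; points are limma estimates and bars are 95% intervals of the fit. All 3 intervals of G6pc2 hold 0, those of Trpm5 lie below 0, and those of Pcx lie on both sides.

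Ucn3, the maturity peptide, was low in Trsp-RIPKO. Its values were 4.18 and 4.09 (TrspFF), 2.98 and 2.87 (Trsp-RIPKO) and 4.12 and 3.85 (Trsp-Ins1KO). The Trsp-RIPKO arrays lay below all others, and TrspFF and Trsp-Ins1KO overlapped. Ucn3 fell by 1.21 in Trsp-RIPKO (2.32-fold lower, SE 0.114, limma with n = 2 arrays per group, adjusted p = 0.00527). In Trsp-Ins1KO the difference from TrspFF was -0.16 with a 95% interval of -0.45 to 0.14 (limma adjusted p = 0.309). Trsp-Ins1KO exceeded Trsp-RIPKO by 1.06 (2.08-fold, limma adjusted p = 0.00345). The fall in Trsp-RIPKO and the difference between the knockouts were called in each of the 6 fits without 1 array, and also under the authors' column names (-1.06 and 1.21). With normexp, Ucn3 was called lower in Trsp-Ins1KO than in TrspFF (-0.43, limma adjusted p = 0.00046).

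The urocortin system beyond Ucn3 was sparsely measured: 5 of 10 listed genes were tested, and Ucn, Ucn2 and Crh did not pass the filter. Crhr2, the receptor for urocortin 3, rose by 0.35 in Trsp-RIPKO and 0.46 in Trsp-Ins1KO, opposite to its ligand in Trsp-RIPKO. The first of these calls was lost whichever array of TrspFF or Trsp-RIPKO was left out and the second without TrspFF 1 (highest limma adjusted p of 0.18 and 0.081). Sst, encoding somatostatin of delta cells, which urocortin 3 stimulates, fell by 0.27 in Trsp-RIPKO and by 0.78 in Trsp-Ins1KO, and the first call was lost whichever array of TrspFF or Trsp-RIPKO was left out (highest limma adjusted p = 0.20). Crhr1, a receptor for corticotropin-releasing hormone, fell by 0.94 in Trsp-Ins1KO, lost without TrspFF 1 (limma adjusted p = 0.062), and Crhbp, which binds that hormone, fell by 1.13 in Trsp-RIPKO, lost whichever array of TrspFF or Trsp-RIPKO was left out (highest limma adjusted p = 0.15). In all, 1 of the 5 rose and 2 fell in each knockout (0 and 3 in Trsp-RIPKO with median scaling or quantile normalization). Over all tested genes, 18.9% were called higher and 17.5% lower in Trsp-RIPKO, and 23.0% in each direction in Trsp-Ins1KO. Leaving out any 1 array of TrspFF or Trsp-RIPKO ended every call of the 5 in Trsp-RIPKO, where most calls over all genes were lost too. Without the filter on dim probes 0 of the listed genes were called in Trsp-RIPKO. Calls were also lost in Trsp-Ins1KO without TrspFF 1. Of 4 delta-cell markers, Sst included, 3 fell and 0 rose in Trsp-Ins1KO (median -0.63), while 1 fell and 2 rose in Trsp-RIPKO (median 0.06). Their sum, in which bright markers weigh most, was 271 and 267 (TrspFF), 221 and 234 (Trsp-RIPKO) and 162 and 152 (Trsp-Ins1KO). The part of delta-cell number in the Sst values was not tested.

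Other genes of the mature beta cell split between the knockouts. On the maturity list, 29 of 30 genes were tested; 2 rose and 8 fell in Trsp-RIPKO (median -0.15, 0 and 15 with median scaling), and 13 rose and 8 fell in Trsp-Ins1KO (median 0.12, 11 and 11 with normexp). Of all tested genes, 18.9% were called higher and 17.5% lower in Trsp-RIPKO, and 23.0% in each direction in Trsp-Ins1KO. With median scaling, 2013 of all 19021 genes were called higher and 7264 lower in Trsp-RIPKO. Most of the listed calls in Trsp-RIPKO were lost without TrspFF 1, TrspFF 2 or Trsp-RIPKO 2, as were most over all genes. Without the filter on dim probes 1 rose and 5 fell there. In Trsp-Ins1KO 7 rose and 6 fell without TrspFF 1, and 8 and 6 without TrspFF 2. Ins1 and Ins2, the near-identical insulin genes whose probes may share signal, rose by 0.99 and 0.86 in Trsp-Ins1KO and stood at 0.27 and 0.12 in Trsp-RIPKO (limma adjusted p of 0.123 and 0.313). These rises are relative to the 75th percentile, which was lower on the Trsp-Ins1KO arrays (121.9 and 110.7) than on TrspFF (247.2 and 218.1). They need not be rises in intensity before scaling. Between the knockouts Ins1 went from 0.72 to -0.16 with quantile normalization (limma adjusted p = 0.086). Mafa, a transcription factor of mature beta cells, rose by 0.68 in Trsp-Ins1KO and stood at 0.16 in Trsp-RIPKO (limma adjusted p = 0.187). Cdh1 (E-cadherin) rose by 0.43 in Trsp-RIPKO and by 1.90 in Trsp-Ins1KO, and the first call was lost without TrspFF 1, TrspFF 2 or Trsp-RIPKO 2 (highest limma adjusted p = 0.08). Ptprn, a protein of insulin granules, rose by 0.90 in Trsp-Ins1KO, lost without TrspFF 1 (limma adjusted p = 0.06). Ppp1r1a, an inhibitor of protein phosphatase 1, fell by 1.02 and 0.62, and Sytl4 (granuphilin) fell by 0.57 and 0.98, the first lost without TrspFF 1 or TrspFF 2 (highest limma adjusted p = 0.071). Glp1r, the receptor for the incretin GLP-1, fell by 1.49 in Trsp-Ins1KO, with -0.69 on a second probe, and stood at -0.10 in Trsp-RIPKO.

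All 6 listed beta-cell markers (Ins1, Ins2, Iapp, Mafa, Pdx1 and Nkx6-1) rose in Trsp-Ins1KO (median 0.76), and in Trsp-RIPKO 0 rose and 1 fell (median 0.14), while Slc2a2 and Trpm5 fell in both knockouts. The markers' summed level was 3020 and 3410 (TrspFF), 3430 and 3680 (Trsp-RIPKO) and 5720 and 6300 (Trsp-Ins1KO). All sums here are linear intensities relative to each array's 75th percentile. That percentile was lower on the Trsp-Ins1KO arrays (121.9 and 110.7) than on TrspFF (247.2 and 218.1). The higher beta-cell sums in Trsp-Ins1KO therefore need not be higher intensities before scaling. Acinar markers were higher in both knockouts, with sums of 7.71 and 8.17, 20.2 and 23.2, and 18.0 and 17.3, and 9 and 8 of 9 called higher. Alpha-cell markers summed to 717 and 746, 617 and 665, and 527 and 509. PP and epsilon cell markers, Pyy among them, summed to 672 and 666 (TrspFF), 314 and 326 (Trsp-RIPKO) and 518 and 461 (Trsp-Ins1KO); 3 of 3 fell in Trsp-RIPKO and 2 in Trsp-Ins1KO. Of the tested markers of ducts, endothelium, fibroblasts and macrophages, 1 of 2, 3 of 4, 4 of 6 and 1 of 3 rose in Trsp-RIPKO with 0 called lower. In Trsp-Ins1KO 4 of 6 fibroblast markers fell and 1 rose (median -0.57), 1 of 2 duct markers fell and 0 rose, and 3 of 4 endothelial and 1 of 3 macrophage markers rose with 0 called lower. Beside these marker counts, 18.9% of all tested genes were called higher and 17.5% lower in Trsp-RIPKO, and 23.0% in each direction in Trsp-Ins1KO. The part of cell composition in the member values was not tested.

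Genes of the immature or dedifferentiated beta cell were measured in 14 of 19 cases. In Trsp-RIPKO 5 rose and 2 fell (median 0.22; 4 and 4 with median scaling, 4 and 3 with quantile normalization), and in Trsp-Ins1KO 4 rose and 3 fell (median 0.11; 10 and 3, median 0.37, with normexp). Among all tested genes, 18.9% were called higher and 17.5% lower in Trsp-RIPKO, and 23.0% in each direction in Trsp-Ins1KO. Fewer of the listed genes were called in Trsp-RIPKO with any 1 array of TrspFF or Trsp-RIPKO left out, as over all genes. Cck (cholecystokinin) rose by 3.38 and 1.37 and Aldh1a3, a marker of dedifferentiated beta cells, by 2.86 and 2.02, in the same islets in which Slc2a2 and Trpm5 fell. Myc rose by 0.93 and 1.00 but was well above background on 1 of 2 arrays in TrspFF and in Trsp-Ins1KO, and the first call was lost whichever array of TrspFF or Trsp-RIPKO was left out (highest limma adjusted p = 0.081). Npy (neuropeptide Y), which is high in neonatal beta cells, fell by 1.03 and 0.87. Acot7, an acyl-CoA thioesterase, was higher in Trsp-RIPKO (0.44) and lower in Trsp-Ins1KO (-0.67), the first call being lost without TrspFF 1, TrspFF 2 or Trsp-RIPKO 1 (highest limma adjusted p = 0.091). Cited4, a transcriptional coactivator, fell by 0.84 in Trsp-RIPKO and stood at 0.12 in Trsp-Ins1KO (limma adjusted p = 0.229). Like Ucn3, Cited4 was therefore called lower in Trsp-RIPKO against both other groups.

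**Figure D3:**
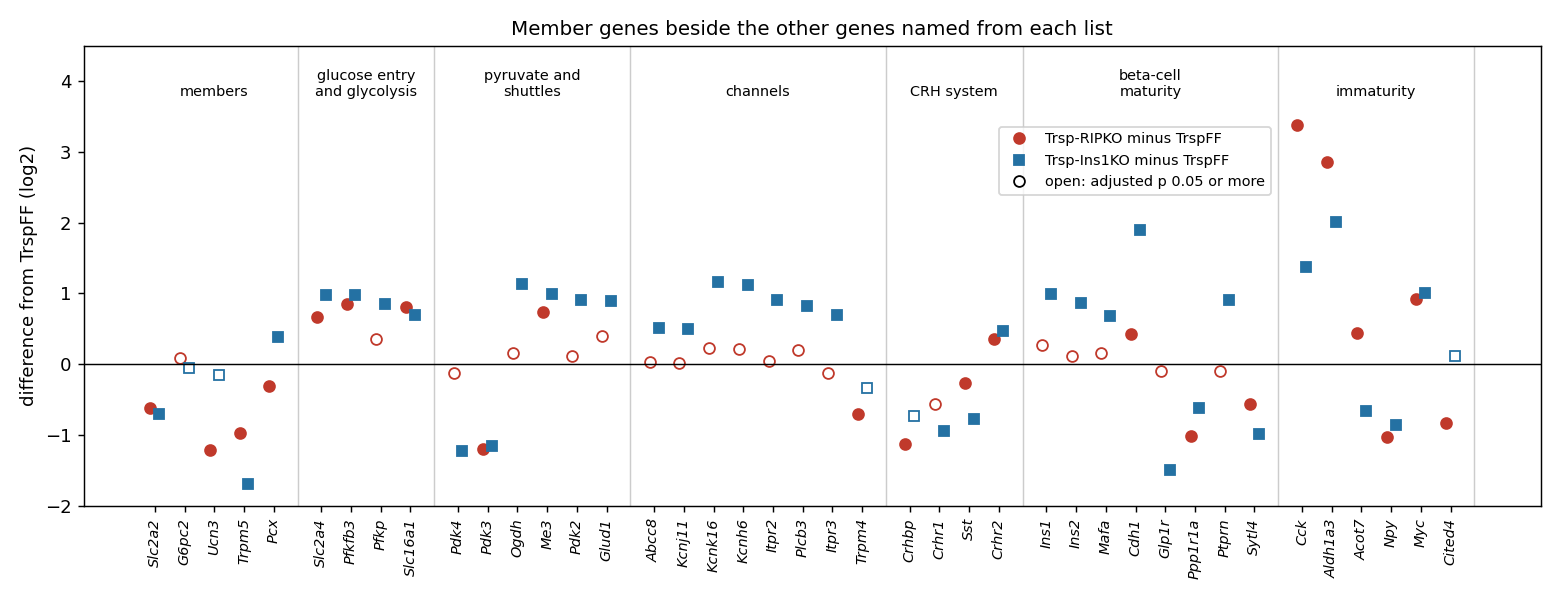
Log2 difference from TrspFF (y axis) of the 5 genes and of the other genes named from each list (x axis), with circles for Trsp-RIPKO, squares for Trsp-Ins1KO, filled where the limma adjusted p was under 0.05 and open otherwise. G6pc is left out because it was not well above background in TrspFF. Channel genes such as Kcnk16 (1.17) rose in Trsp-Ins1KO where Trpm5 fell by 1.70.

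Among 13370 tested genes with a symbol, the profiles most like those of the 5 genes were taken as the 3 with the smallest root mean square difference of centred log2 values over the 6 arrays. With 6 arrays in 3 groups such likeness is a description and has no test. Slc2a2 was nearest to Ndufa6, a subunit of respiratory complex I (difference 0.019, Pearson r = 0.998), followed by Naa35 and Mmut (both 0.029). Pcx was nearest to Ncdn (0.026, r = 0.996), Anks1 (0.029) and Dph7 (0.030). The nearest gene to Ucn3 was Pyy, encoding the hormone peptide YY (0.076, r = 0.992), which stood at 7.66 and 7.62 (TrspFF), 6.55 and 6.54 (Trsp-RIPKO) and 7.69 and 7.55 (Trsp-Ins1KO). The next nearest to Ucn3 were the Y-linked Ddx3y (0.087, r = 0.992), at 0.96 and 0.78, -0.53 and -0.44, and 0.75 and 0.51, and Podxl2 (0.093). The labels give all mice as male, and what a lower Y-linked gene in Trsp-RIPKO has to do with Ucn3 was not tested. Trpm5 had less close neighbours in Tmigd3 (0.111), H2bc6 (0.133) and Mettl21c (0.152), the last of them below the 75th percentile by 3.37 or more on every array. Mettl21c stood at -4.12 and -4.45 (Trsp-RIPKO) and -5.03 and -5.47 (Trsp-Ins1KO). The lowest signals called well above background on those arrays were higher, at -4.089, -4.376, -3.588 and -3.387. Its likeness to Trpm5 thus rests partly on values not well above background. G6pc2, whose profile is nearly flat, was nearest to Alg6 (0.026), Anp32e (0.030) and Hars2 (0.031).

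**Figure D4:**
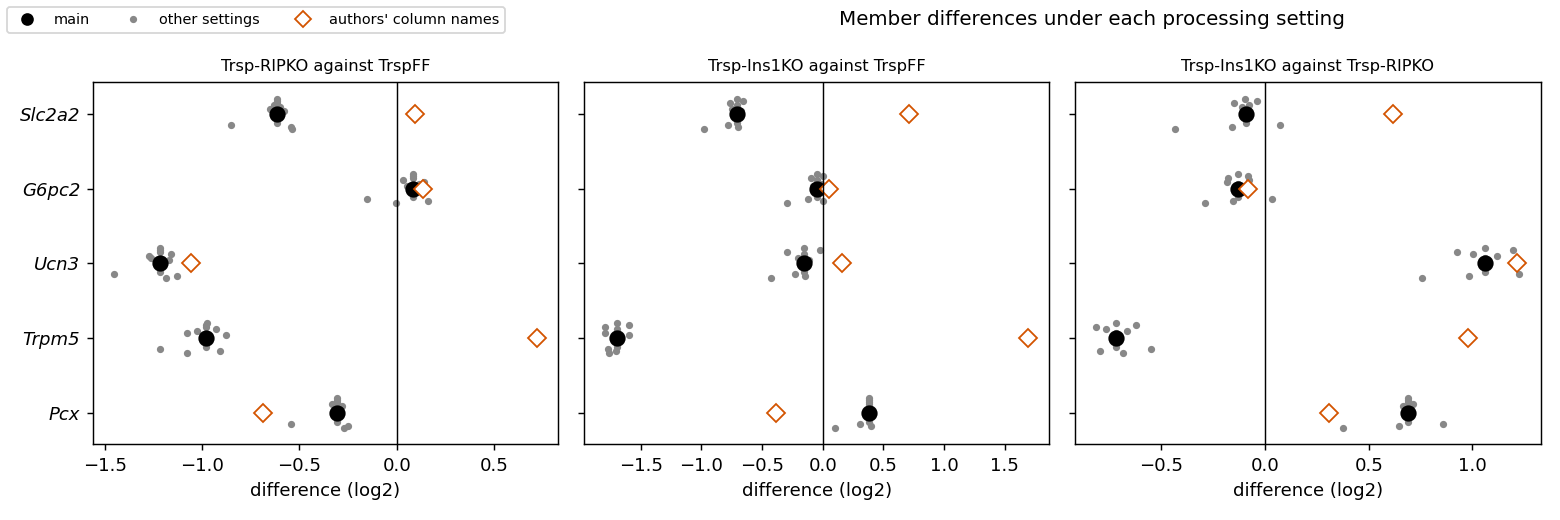
Log2 differences of the 5 genes in the 3 comparisons (x axis) under each processing setting; black circles are the values given in the text, grey points the other settings, and open diamonds the authors' table with its own column names. Ucn3 in Trsp-RIPKO against TrspFF lies between -1.45 and -1.06, and the diamonds of Trpm5 (0.72, 1.70 and 0.98) lie on the other side of 0 from all other settings.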

How the data were processed

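Messenger RNA of mouse islets was read on 6 Agilent 1-colour arrays. Per the file headers, the authors extracted intensity values with Feature Extraction 10.7.3.1 on array design 026655, whose annotation rests on mm9. The deposited processed intensity is background-subtracted and detrended but not scaled between arrays; Cy3 was the label. A second deposited file holds the authors' own log2 values. No header or label gives its scaling; from its values, each probe is centred on its median, differences between arrays follow the scanner files, and 4 columns carry another group's name than the scanner file they follow.

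From the processed intensity, log2 values minus each array's 75th percentile were computed. Spots flagged as outliers and 1377 control spots were dropped, replicate spots of a probe were averaged, and 39426 of 39429 probes remained. RefSeq accessions named 26053 probes through a GRCm38.p6 table. A probe entered where some group had it well above background on both arrays (23199 probes), and the brightest probe stood for each gene. The limma fit (version 3.58.1 under R 4.3.3) took all 6 arrays, 1 mean for each group, lmFit and eBayes (5.12 total degrees of freedom), with Benjamini-Hochberg adjustment over 19021 genes and calls under 0.05. For a gene not well above background in the dimmer group, "at least" gives a bound: the mean of the brighter group over that of the dimmer one, in which each array takes the lowest signal called well above background or the gene's own, whichever is higher. The fit was tested on simulated data. Alternatives were normexp (on the median spot signal, since no mean signal is in the files), quantile and median scaling, both filters, the mean over probes, a trended robust fit, only the groups compared, a replicate block, leaving out each array, and the authors' table. Files were read and plots drawn with matplotlib 3.10.9, numpy 2.4.6 and pandas 2.3.3 under Python 3.11.15.

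The members and all gene lists were chosen with earlier results of these data known. Named list genes are up to 6 per list, those called in some comparison with the largest change, plus Abcc8, Kcnj11, Crhr2, Mafa, Ins1 and Ins2 in any case; some genes that this rule names are not reported here, though list counts include them.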

Additional observations from a re-analysis of the deposited data

Results flagged for a closer look

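Each value here was flagged because both knockouts' changes against the shared TrspFF arrays differed by a test of the difference itself, which equals Trsp-Ins1KO minus Trsp-RIPKO (limma, adjusted p under 0.05 over all genes); no explanation was weighed. Of the 5 genes, Ucn3 (1.06) and Pcx (0.69) were higher and Trpm5 (-0.72) was lower in Trsp-Ins1KO. Among genes of glucose use the differences were 0.48 for Pfkp and -1.63 for G6pc. For G6pc, which was not well above background in Trsp-Ins1KO, Trsp-RIPKO was at least 2.02-fold higher, but normexp gave a difference of 0.02 (adjusted p = 0.84), so the direction and the bound do not hold there. Genes of pyruvate use gave 0.97 for Ogdh (-0.91 on another probe), 0.78 for Pdk2, 0.50 for Glud1 and -1.11 for Pdk4. Channel and calcium release genes gave 0.48 for Abcc8, 0.48 for Kcnj11, 0.94 for Kcnk16, 0.90 for Kcnh6, 0.85 for Itpr2, 0.82 for Itpr3 and 0.62 for Plcb3, with 0.08 on a second Kcnj11 probe and -0.51 on a second Kcnh6 probe. Genes of the maturity list gave 1.47 for Cdh1, 1.00 for Ptprn, 0.74 for Ins2, 0.72 for Ins1 (-0.16 with quantile normalization, adjusted p = 0.086), 0.53 for Mafa, 0.40 for Ppp1r1a, -0.41 for Sytl4 and -1.39 for Glp1r. Sst gave -0.51, Cited4 gave 0.95, and Cck, Acot7 and Aldh1a3 gave -2.01, -1.11 and -0.84. Of the 26 list genes named here, 7 lost the call in at least 1 fit that left out an array: Abcc8 without either Trsp-RIPKO array (highest adjusted p of 0.059), Kcnj11 and Ins1 without Trsp-RIPKO 1 (0.060 and 0.051), Sytl4 without Trsp-RIPKO 2 (0.069), Pfkp and Glud1 in 5 and 4 fits (highest 0.16 and 0.091), and Ppp1r1a without any 1 TrspFF or Trsp-RIPKO array (0.079).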

How the results depend on the processing

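Ucn3 in Trsp-RIPKO against both other groups kept its direction and its call under every alternative run. Slc2a2 and Trpm5 kept theirs against TrspFF, and Trpm5 between the knockouts, except under the authors' column names and, for Slc2a2 in Trsp-RIPKO, without TrspFF 1. Under those names Slc2a2, Trpm5, Ucn3, Pcx and G6pc2 gave 0.71, 1.70, 0.16, -0.38 and 0.049 in Trsp-Ins1KO against TrspFF, Slc2a2 and Trpm5 gave 0.10 and 0.72 in Trsp-RIPKO against TrspFF, and 0.62 and 0.98 in Trsp-Ins1KO against Trsp-RIPKO; the labels do not settle which naming is correct. With normexp, Trsp-Ins1KO against TrspFF gave -0.29 for G6pc2, -0.43 for Ucn3 and 0.10 for Pcx, Trsp-Ins1KO against Trsp-RIPKO gave -0.44 for Slc2a2 and -0.29 for G6pc2, and G6pc2 in Trsp-RIPKO against TrspFF came to -0.006. G6pc2, near 0, also changed sign with quantile normalization (0.007 in Trsp-Ins1KO against TrspFF) and median scaling (-0.15 in Trsp-RIPKO against TrspFF and 0.035 between the knockouts), and Slc2a2 between the knockouts came to 0.073 with median scaling. Without the filter on dim probes Pcx in Trsp-RIPKO kept -0.31 but lost its call (adjusted p = 0.085). Leaving out 1 array gave, in Trsp-RIPKO against TrspFF, -0.65 to -0.58 for Slc2a2, -0.33 to -0.28 for Pcx and 862 to 7692 genes called (6921 with all arrays; 862, 1347, 2874 and 1534 without TrspFF 1, TrspFF 2, Trsp-RIPKO 1 and Trsp-RIPKO 2); in Trsp-Ins1KO against TrspFF, 0.38 to 0.39 for Pcx, -0.10 to 0 for G6pc2 and 3791 to 8242 genes called (8737 with all arrays; 3791 and 4304 without TrspFF 1 and TrspFF 2); and between the knockouts 4176 to 6578 genes called (7365 with all arrays; 4316 and 4176 without Trsp-RIPKO 1 and Trsp-RIPKO 2). Genes called in Trsp-RIPKO against TrspFF, Trsp-Ins1KO against TrspFF and between the knockouts numbered 2692, 13943 and 11645 without the filter, and 13974 and 12065 for the last 2 with normexp; the cause was not tested. All genes called in Trsp-RIPKO split into 3592 higher and 3329 lower, 2013 and 7264 with median scaling; between the knockouts 3669 and 3696 became 5702 and 2351. The replicate numbers share no stated source: deviations of same-numbered arrays correlated at 0.065 to 0.093, and the fit with the replicate block called 6598, 8489 and 7050 genes and changed no call of the 5 genes.

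For the 37 named list genes, 23 of 657 values changed sign under the other scalings, background correction, filters and probe rule. With median scaling in Trsp-RIPKO against TrspFF these were Abcc8 (-0.20), Kcnj11 (-0.23), Mafa (-0.082), Ins2 (-0.12), Ogdh (-0.079), Pdk2 (-0.12), Kcnk16 (-0.007), Kcnh6 (-0.019), Itpr2 (-0.19) and Plcb3 (-0.037), and between the knockouts Slc16a1 (0.046). With normexp they were Abcc8 (-0.035), Kcnj11 (-0.045) and Mafa (-0.084) in Trsp-RIPKO, and Trpm4 (0.012) and Crhbp (0.20) in Trsp-Ins1KO against TrspFF. Between the knockouts they were G6pc (0.02), Slc16a1 (0.32) and Crhr1 (0.15). Of these values with normexp, those of Crhbp and Slc16a1 were called (limma adjusted p of 0.024 and 0.0017). Quantile normalization gave -0.018 for Abcc8 in Trsp-RIPKO and -0.16 for Ins1 between the knockouts, and the mean over probes gave -0.039 for Abcc8 and -0.019 for Kcnj11. Leaving out 1 array also took 6 of their differences across 0, and 0 of these 6 were called with all arrays. In Trsp-RIPKO against TrspFF they were Kcnj11 (-0.06 to 0.08), Glp1r (-0.28 to 0.08) and Ptprn (-0.25 to 0.04). Between the knockouts they were Pfkfb3 (-0.01 to 0.25), Pdk3 (-0.14 to 0.22) and Myc (-0.15 to 0.31). With 2 arrays a group, their number limits the precision of every value.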

Other observations

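Before any scaling between arrays, the deposited intensities of all 5 genes were lower on both Trsp-Ins1KO arrays than on both TrspFF arrays. Pcx, which rose after scaling, read 3473 and 3086 (TrspFF), 2411 and 2353 (Trsp-RIPKO) and 2236 and 2036 (Trsp-Ins1KO). G6pc2, which passed no test after scaling, read 18267 and 16840 (TrspFF), 16606 and 16861 (Trsp-RIPKO) and 9213 and 7820 (Trsp-Ins1KO). Ucn3 read 4491 and 3719 (TrspFF), 1698 and 1480 (Trsp-RIPKO) and 2115 and 1595 (Trsp-Ins1KO). The 75th percentile of the Trsp-Ins1KO arrays (121.9 and 110.7) was also below that of the other 4 arrays.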
